A study of Rattus norvegicus with 138 samples.

Results

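The caudal ventrolateral medulla (CVLM) of the spontaneously hypertensive rat (SHR) was compared with that of its normotensive control, the Wistar Kyoto rat (WKY), at 24 weeks of age. The comparison took all RNA sequencing libraries of the CVLM at that age, 6 from SHR and 3 from WKY, which were 9 of the 46 libraries of the CVLM table, and every gene of that table. The rats were females of the SHR/NHsd and WKY/NHsd colonies of 1 supplier, and the SHR is an inbred strain in which hypertension develops spontaneously with age. Tissue was punched from both sides of frozen brainstem sections, and each rat also gave a library of the rostral ventrolateral medulla (RVLM) and of the nucleus of the solitary tract (NTS). Rats of the same strains at 8, 10, 12 and 16 weeks made up the other CVLM libraries. Strain, colony and every allele that separates the strains differ together between the groups, so that none of them can be told apart from blood pressure here.

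The CVLM is the relay of the arterial baroreflex. Its inhibitory neurons, which use GABA, receive excitation from the NTS when blood pressure rises and restrain the sympathetic premotor neurons of the RVLM. The region also holds the noradrenergic A1 cell group, which projects to the hypothalamus, and lies next to respiratory and motor nuclei of the medulla.

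The 9 libraries held between 8587315 and 12940393 estimated counts. The table lists 32883 genes, of which 13408 passed the filter on low values and were tested. Levels are given as counts per 1000000 counts (CPM) after TMM scaling, and differences as log2 fold changes of SHR over WKY, on which 1 unit is a doubling. Genes of inhibitory and catecholaminergic neurons were detected in every library. Gad1 was between 134 and 192 CPM, Th between 68.1 and 151 CPM and Dbh between 57.3 and 98.4 CPM. Of 8 forebrain markers 1 passed the filter. These levels were not set against those of the RVLM and the NTS, so they do not tell the CVLM from those regions. The summed level of 7 motor neuron markers was 164 to 277 CPM in SHR against 72.0 to 145 CPM in WKY, and its part in the results below was not tested. In punched tissue, fewer cells of a type and less RNA per cell cannot be told apart.

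A gene was called when the adjusted p of edgeR's quasi-likelihood test (Benjamini-Hochberg) was at most 0.01 and the level differed at least 2-fold. By this rule 145 genes, 1.08% of those tested, differed between the strains, 68 higher (0.507%) and 77 lower (0.574%) in SHR. At an adjusted p under 0.05, the threshold meant below by passing the test, 956 genes (7.13%) differed, 296 higher (2.21%) and 660 lower (4.92%). The excess of lower genes lay in small differences: 566 of the 660 lower genes and 190 of the 296 higher genes differed by less than 2-fold. Their medians were -0.54 for all 660 lower genes and 0.72 for all 296 higher genes, against 0.015 over all genes tested. All 6 SHR libraries lay above all 3 WKY libraries for 4.26% of the genes tested and below them for 7.93%. The number of small differences rested on the WKY rats in particular. Without WKY rat 3 the passing genes fell to 129 higher and 232 lower, without WKY rat 1 to 200 higher and 236 lower, without WKY rat 2 to 196 higher and 540 lower, and without SHR rat 6 to 226 higher and 425 lower, whereas without SHR rat 4 there were 342 higher and 1005 lower.

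**Figure D1:**
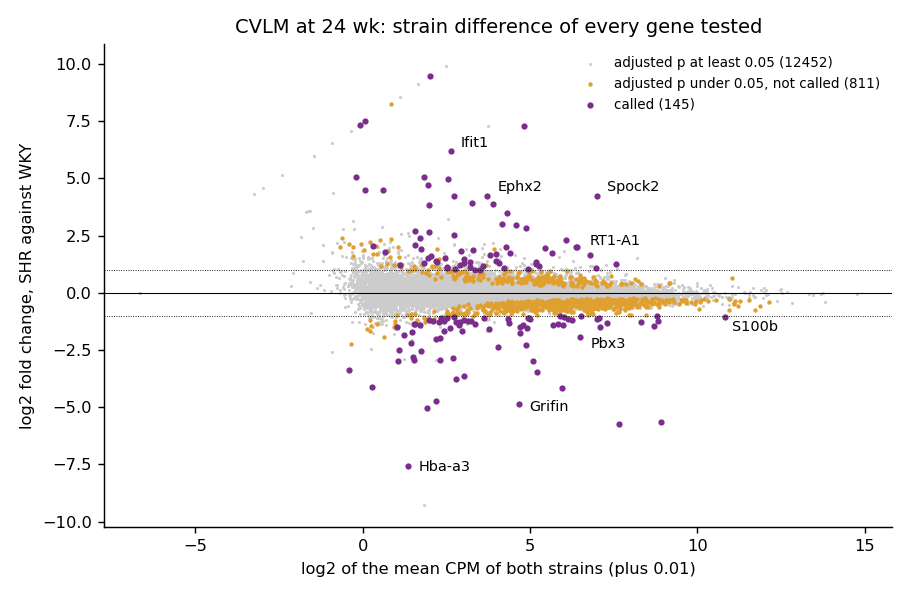
Each point is 1 of the 13408 genes tested, with the log2 of its mean CPM (plus 0.01) on the x axis and its log2 fold change of SHR over WKY in the CVLM at 24 weeks on the y axis. Called genes are purple, 68 above and 77 below zero, other genes with an adjusted p under 0.05 are orange, with a dense band just below zero, and the rest are grey.

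Genes far higher in SHR included enzymes, secreted proteins and immune receptors. Ephx2, the soluble epoxide hydrolase that breaks down epoxyeicosatrienoic acids, was at a lowest, median and highest level of 21.8, 25.4 and 27.4 CPM in SHR and at 1.74, 1.35 and 0.858 CPM in the 3 WKY rats (log2 fold change 4.24, SE 0.23, adjusted p = 2.24e-18). Spock2, an extracellular matrix proteoglycan of the testican family, was at 209, 245 and 277 CPM in SHR and at 13.6, 10.8 and 14.2 CPM in WKY (4.24, SE 0.19, adjusted p = 1.35e-20). Every SHR library thus stood more than 10-fold above every WKY library for both genes. Apoa5, an apolipoprotein of triglyceride-rich particles, reached 5.43 to 8.65 CPM in SHR and 0 to 0.464 CPM in WKY (5.07, SE 0.53). Lilrb3a, an inhibitory leukocyte immunoglobulin-like receptor, reached 7.59 to 14.5 CPM in SHR and 0 to 0.858 CPM in WKY (4.97, SE 0.55). Pkp1, a desmosomal plaque protein, was at 4.49 to 9.26 CPM in SHR and at most 0.673 CPM in WKY (3.86, SE 0.39). Apoa5, Lilrb3a and Pkp1 thus stayed under 1 CPM in every WKY library. Tmem94, a transmembrane protein, stood at 26.4 to 48.0 CPM against 2.24 to 3.95 CPM (3.49), the peroxisomal membrane protein gene Pxmp4 at 28.3 to 34.2 CPM against 3.31 to 4.599 CPM (3.00), and Pbld1 at 37.5 to 47.0 CPM against 5.16 to 5.92 CPM (2.95).

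Several of the lowest values in SHR belonged to genes near zero in that strain. Grifin, a lens protein related to the galectins, was at 0.961, 1.69 and 2.41 CPM in SHR (lowest, median, highest) and at 55.4, 36.8 and 55.3 CPM in WKY (-4.84, SE 0.34, adjusted p = 1.83e-14). Cfap206, a protein of ciliary axonemes, was at 0.107 to 0.541 CPM in SHR and 7.403 to 10.8 CPM in WKY (-4.73), and Tstd1, a small sulfurtransferase, at 0.417 to 1.51 CPM and 10.2 to 14.95 CPM (-3.74). Tmem106c, a transmembrane protein, was at 6.34 to 9.503 CPM against 53.1 to 65.5 CPM (-2.96). No SHR library reached the WKY range for any of these 4 genes. Lrsam1, a ubiquitin ligase, was at 0.464 to 2.70 CPM against 10.3 to 12.7 CPM (-2.84), and Nudt17, a nucleoside diphosphate hydrolase, at 0.232 to 1.49 CPM against 4.41 to 5.38 CPM (-2.81). Ndufa10l1, annotated under 2 identifiers and related to a complex I subunit, was lower under both. The abundant one (ENSRNOG00000016470) was at 157 to 202 CPM in SHR and 415 to 468 CPM in WKY (-1.29, SE 0.08) and the scarce one (ENSRNOG00000062245) at 0 to 1.17 CPM and 2.67 to 4.41 CPM (-2.97, SE 0.70), and reads may be split between them.

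**Figure D2:**
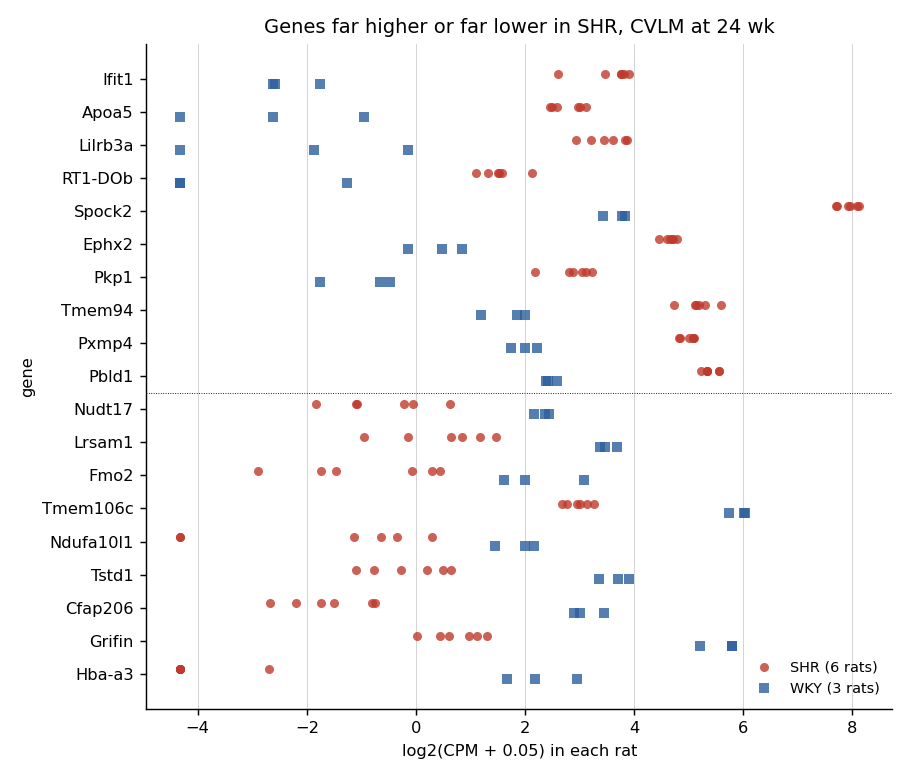
The log2 of CPM plus 0.05 is drawn for named genes with the highest and the lowest fold changes among those called, with 1 point per rat, red circles for 6 SHR and blue squares for 3 WKY. The groups are separate for each gene drawn.

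Some of the sharpest contrasts were in transcripts without a gene name. AABR07052523.1 was at 10.7, 19.7 and 22.2 CPM in SHR (lowest, median, highest) and at 977, 870 and 976 CPM in WKY (-5.65, SE 0.16), and RGD1563294 at 4.64, 8.17 and 8.94 CPM against 465, 321 and 397 CPM (-5.71, SE 0.22). In the other direction AABR07044404.1 had 533 counts in all over the SHR rats and 0 over the WKY rats, at least 69.5-fold higher when 3 counts are allowed over the WKY group, and RGD1309362 had 135 counts against 0, at least 17.6-fold higher. Together with the protein-coding genes above, these transcripts divided the strains without overlap.

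Most of the large differences were not particular to this age or region. By the same rule 1.41%, 1.18%, 0.992% and 0.999% of genes were called in the CVLM at 8, 10, 12 and 16 weeks, and of the 145 genes called at 24 weeks 86 were also called at each of these ages and 23 at none of them. In the RVLM and the NTS at 24 weeks, sampled from the same rats, 0.969% and 0.986% of genes were called, and 83 of the 145 were called in both. In all other 14 comparisons of the strains by region and age 62 were called, among them Ephx2, Spock2, Apoa5, Lilrb3a, Pkp1, Grifin, Cfap206, Tstd1 and Insr, and 16 were called in the CVLM at 24 weeks alone.

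Called genes were in part neighbours on the chromosomes. In the gene order of the RefSeq annotation of GRCr8, 115 of the 145 could be placed, and 23 of them (20%) had another called gene within 5 tested genes, in 10 groups. The share that as many tested genes taken at random would reach was not computed, so the 20% is a description only. Hba-a1, Hba-a2 and Hba-a3 formed a group in which all were lower, and RGD1624210, RT1-DOb and Psmb8 formed a group in which all were higher. RT1-A1 and RT1-A2 were neighbours that differed in opposite directions, and so were Lilrb3a and Prpf31, and Tstd1 and F11r.

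Genes of the major histocompatibility complex (MHC), which presents peptides to T cells, moved in both directions. Of 23 class I presentation genes tested 5 were higher and 3 lower, with a median of -0.20. Counts in this and all later lists are to be set against 2.21% of all genes that passed as higher and 4.92% as lower. The classical class I heavy chain gene RT1-A1 was at 110, 130 and 153 CPM in SHR (lowest, median, highest) and at 36.0, 31.6 and 31.9 CPM in WKY (2.01, SE 0.14, adjusted p = 9.03e-15). RT1-A2 was lower, at 1.98 to 5.50 CPM against 7.07 to 9.07 CPM (-1.09, adjusted p = 0.00595), and RT1-N2 was lower at 0.704 to 1.28 CPM against 3.80 to 5.27 CPM (-2.19, adjusted p = 2.47e-05). Class I genes are near-identical copies that differ between strains, so that the division of reads among them is uncertain. Psmb8, an immunoproteasome subunit that cuts peptides for class I, was higher at 11.8 to 17.3 CPM against 4.53 to 8.09 CPM (1.02, adjusted p = 0.000439), whereas Psmb10, another one, was lower (-0.73, adjusted p = 0.0201) with groups that overlapped. Tap2, a subunit of the peptide transporter, was higher (1.90, adjusted p = 0.0118) although 1 SHR rat, at 2.40 CPM, lay within the WKY range of 0.490 to 2.69 CPM. The peptide-loading protein gene Tapbp was higher by 0.71 (adjusted p = 0.00947). Without WKY rat 3 the class I genes that passed were 2 higher and 1 lower, and those that no longer passed included RT1-A2 (adjusted p = 0.0707), Tap2 (0.137), Tapbp (0.0572) and Psmb10 (0.191). Tapbp (0.053) and Psmb10 (0.0951) also failed without WKY rat 1, and Psmb10 without SHR rat 6 (0.059).

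Of 7 class II presentation genes tested 1 was higher and 1 lower, with a median of -0.61 (0.04 without WKY rat 1) and sums that did not overlap, at 91.9 to 153 CPM in SHR and 160 to 191 CPM in WKY. RT1-DOb, a chain of the class II modulator DO, had 189 counts over the SHR rats and 3 over the WKY rats, a ratio of 24.6 with a 95% counting interval of 8.31 to 121. Ctss, the cathepsin that trims the class II invariant chain and a gene of microglia, was lower (-0.61, adjusted p = 0.000993). It was at 65.6 to 97.1 CPM in SHR against 116 to 128 CPM in WKY. Ctss thus made up a large part of the class II sum, and the sum was not taken without it. Of 19 microglia markers Ctss and Aif1 were lower, to be set against 4.92% of all genes. Aif1 was at 18.4 to 37.5 CPM against 38.9 to 53.4 CPM (-0.71, adjusted p = 0.0306). The summed levels of the 19 markers overlapped at 499 to 636 CPM in SHR and 586 to 642 CPM in WKY. Aif1 did not pass without WKY rat 1 (adjusted p = 0.0742), without WKY rat 3 (0.238), or without SHR rat 3 (0.079), 5 (0.0602) or 6 (0.0744). Among 32 interferon-induced genes 2 were higher and the median was -0.12. Ifit1, which binds viral RNA caps, was at 5.99, 13.5 and 14.9 CPM in SHR (lowest, median, highest) and at 0.116, 0.112 and 0.245 CPM in WKY (6.18, SE 0.78, adjusted p = 3.24e-07). The mitochondrial regulator of antiviral signalling Nlrx1 was higher by 0.69 (adjusted p = 0.00207, and 0.0524 without WKY rat 3). The interferon-induced genes as a list therefore did not move with Ifit1.

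Of 22 complement genes 3 were higher and none lower, to be set against 2.21% and 4.92% of all genes. C7, a component of the membrane attack complex, was at 1.94 to 4.59 CPM in SHR and at 1.86, 1.01 and 0.981 CPM in WKY (1.23, adjusted p = 0.00607), and C2, a protease of the classical pathway, was higher by 0.72 (adjusted p = 0.0366). Cfb, the factor B of the alternative pathway, is annotated under 2 identifiers. Under ENSRNOG00000000419 it had 230 counts over the SHR rats and 0 over the WKY rats, at least 29.99-fold higher (adjusted p = 0.0205), with 1 SHR rat also at 0. Under ENSRNOG00000051158 it was at 7.001 to 17.7 CPM in SHR and 10.2 to 14.95 CPM in WKY, a log2 fold change of 0.00 (adjusted p = 0.999). No complement gene passed as higher without WKY rat 2 (adjusted p = 0.0508 for C7, 0.139 for C2 and 0.0694 for Cfb) or WKY rat 3 (0.0765, 0.153 and 0.101). C2 and Cfb also failed without WKY rat 1 (0.0575 and 0.0931), and C2 without SHR rat 1, 2 or 4 (up to 0.0655).

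Genes of protein synthesis were among the genes slightly lower in SHR than in WKY. Cytosolic ribosomal proteins, whose mRNAs as a class begin with a run of pyrimidines at the cap through which their translation is controlled, were chosen as a list after their values had been seen and are given as a description. Of 75 tested 41 were lower in SHR and 1 higher, set against 4.92% and 2.21% of all genes, 74 had a value below zero, and the median was -0.61 with a range of -1.01 to 0.95. Of the 55 distinct promoters that the RefSeq promoter table of GRCr8 holds for them, 31 (56.4%) had at least 7 C or T in a row within 5 bases before to 10 bases after the annotated start, against 7.11% of all 24206 promoters (only the sense strand was searched). Such runs were also present in members that did not pass, as in Rpl37a and Rps15. Whether the run goes with the strain difference was not tested. 4 of the lower members with such a run are shown from 20 bases before to 10 bases after the start. The build is GRCr8 and the run is in capitals.
Rps24, chr16:96497-96526, plus strand: ggcagtgagcggtccTCTTTTCCTCCTTTa
Rpl14, chr8:129163600-129163629, plus strand: cggcagggcgggcccTCTCCCTTCTCgctg
Rps21, chr3:187724018-187724047, plus strand: tggaagaacgagccaCTTCCTTTCTgtgtt
Rps3a, chr2:173827033-173827062, minus strand: cgcgcgagttgtacttccgCCCTTTTggct

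Levels of these members were lower in SHR than in WKY by similar amounts. Rpl14 was at 88.1, 137 and 178 CPM in SHR (lowest, median, highest) and at 225, 203 and 249 CPM in WKY (-0.72, SE 0.18, adjusted p = 0.0104). Rps3a was at 132, 171 and 227 CPM against 276, 273 and 300 CPM (-0.70, SE 0.15, adjusted p = 0.00157). Rpl3, whose start has no such run, was at 341, 380 and 447 CPM against 532, 535 and 541 CPM (-0.46, SE 0.09, adjusted p = 0.000504). The SHR and WKY rats were separate for these 3 genes, whereas for Rps24 (-0.66, adjusted p = 0.0258) the highest SHR rat, at 108 CPM, exceeded the lowest WKY rat, at 107 CPM. Rpl30 was the member that was higher, at 21.8 to 32.7 CPM against 13.3 to 15.8 CPM (0.95, adjusted p = 0.0152). The summed level of the list was 5095 to 8667 CPM in SHR and 8967 to 11196 CPM in WKY. In the RVLM of the same rats the sums were likewise separate, 3784 to 6559 CPM against 6751 to 9292 CPM, and in the NTS they overlapped, 5565 to 8781 CPM against 7310 to 9572 CPM. At the other ages the CVLM sums of the strains overlapped, and the median log2 fold change was 0.21, -0.11, -0.02 and -0.11 at 8, 10, 12 and 16 weeks. The WKY median at 24 weeks stood above the WKY medians at all other ages. The median sum of the WKY rats was 9656 CPM, against medians of 5493 to 7945 CPM in WKY at the other ages. The SHR median of 6639 CPM lay within the SHR medians of 5218 to 7530 CPM at the other ages. It was below those at 8, 12 and 16 weeks (7122, 7500.5 and 7530 CPM) and above only that at 10 weeks. All 10-week CVLM libraries had names ending in 2, and the part of this number in the sums was not tested. Single rats of other ages reached the 24-week WKY range. At 12 weeks the highest WKY rat was at 10177 CPM and the highest SHR rat at 10662 CPM. Between 24 weeks and the mean of the other ages 51 of the 75 genes were higher and none lower in WKY (median 0.57), and none passed in SHR (median -0.01). Over all genes 1411 (10.5%) passed this test in WKY and 43 (0.321%) in SHR. The WKY count was 170 without WKY rat 3, 295 without WKY rat 1 and 885 without WKY rat 2. The SHR count was 24 without SHR rat 4 and 27 without SHR rat 5. With the number that ends a library's name as a term the counts were 575 in WKY and 47 in SHR.

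**Figure D3:**
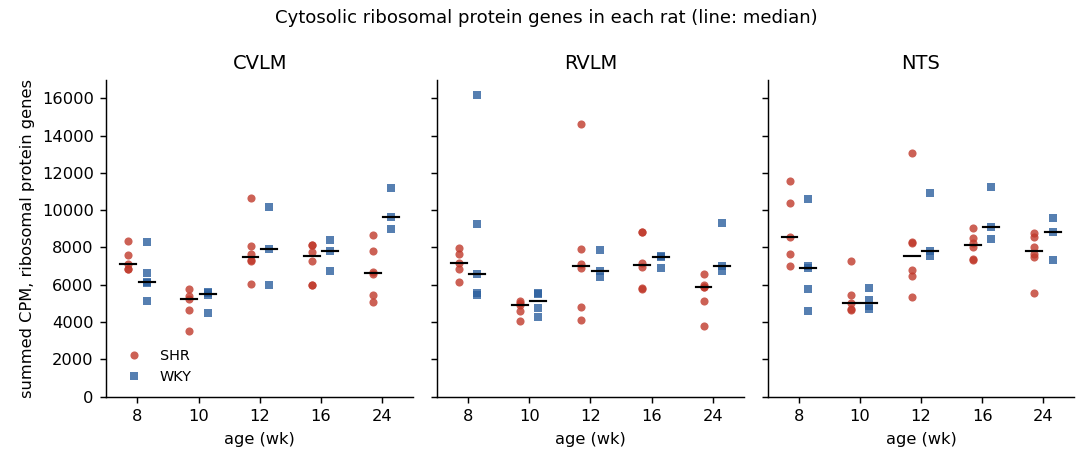
Points give the summed level in CPM of the 75 cytosolic ribosomal protein genes in each CVLM, RVLM and NTS library, by age in weeks and strain, with a line at each median. At 24 weeks the 3 WKY libraries of the CVLM, from 8967 to 11196 CPM, lie above all 6 SHR libraries.

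The number of ribosomal protein genes that passed depended on single rats, although the median stayed between -0.69 and -0.50 when each rat was left out in turn. Lower members numbered 4 without WKY rat 3, 7 without WKY rat 1, 17 without SHR rat 6 and 21 without SHR rat 3, and 4 in a fit of the 24-week libraries alone. Gene length moved with the same pattern. Among the fifth of genes with the shortest genomic span (median 4.64 kb) 8.91% passed as lower and the median was -0.15, and among the fifth with the longest (median 143 kb) 2.01% passed as lower and the median was 0.11. The part of gene length in the ribosomal protein result was not tested.

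Other genes of protein turnover and mitochondrial respiration were lower by similar small amounts. Over all genes 4.92% passed as lower and 2.21% as higher. Of 73 mitochondrial ribosomal proteins 16 were lower and 1 higher (median -0.41), led by Mrpl48, at 67.1 to 101 CPM against 143 to 156 CPM (-0.86, SE 0.13, adjusted p = 8.49e-06), and Mrpl4 (-0.83, adjusted p = 9.78e-06). Of 36 proteasome subunits 9 were lower and 1, Psmb8, was higher (median -0.27). Of 35 subunits of complex I, the first proton pump of the respiratory chain, 10 were lower and none higher, 34 had a value below zero and the median was -0.48. Ndufs4, an accessory subunit needed for complex I assembly, was at 153, 175 and 206 CPM in SHR (lowest, median, highest) and at 247, 228 and 237 CPM in WKY (-0.41, adjusted p = 0.00277). Of 47 nuclear subunits of complexes II to V 11 were lower (median -0.43), among them Atp5f1c, the gamma subunit of ATP synthase, at 706 to 872 CPM against 981 to 1029 CPM (-0.39, adjusted p = 0.0022). The 13 subunits encoded by mitochondrial DNA stood apart from the nuclear ones: none passed, their median was -0.06, and their sums overlapped at 54986 to 69374 CPM in SHR and 59605 to 66375 CPM in WKY. The counts of lower genes ranged widely when each rat was left out, from 3 to 34 for mitochondrial ribosomal proteins, 0 to 19 for proteasome subunits, 1 to 24 for complex I and 1 to 21 for complexes II to V, with the lowest counts without WKY rat 3 (also without WKY rat 1 for the respiratory complexes) and the highest without SHR rat 4. Mrpl48 and Mrpl4 passed with each rat left out in turn, and Ndufs4 did not without WKY rat 1 (adjusted p = 0.0547).

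**Figure D4:**
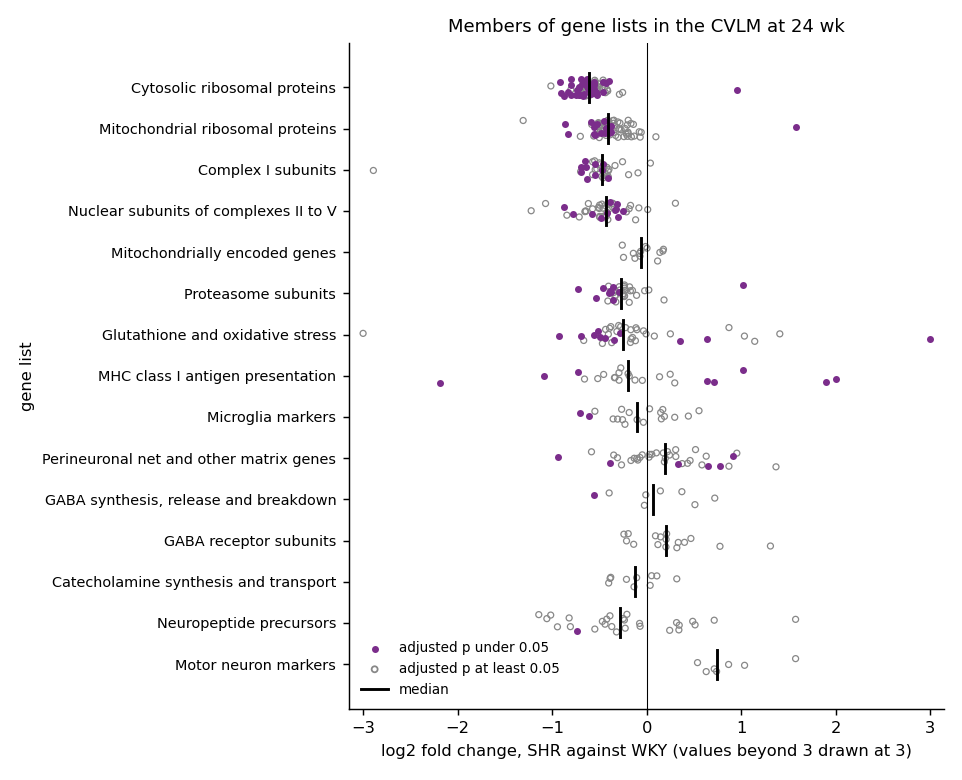
For each gene list the log2 fold changes of SHR over WKY of its tested members in the CVLM at 24 weeks are drawn as points, purple where the adjusted p was under 0.05, with their median as a bar and values beyond 3 drawn at 3. The lists of ribosomal proteins and nuclear respiratory subunits lie mostly below zero. The lists of GABA synthesis and of catecholamine genes lie on both sides of it. The medians of GABA receptor subunits (0.20) and motor neuron markers (0.74) are above zero and that of neuropeptide precursors (-0.28) is below.

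Detoxifying enzymes differed in both directions. Of 38 genes of glutathione and oxidative stress 3 were higher and 8 lower (median -0.25), to be set against 2.21% and 4.92% of all genes. Ephx2 has been described, and Gstt3, a theta class glutathione transferase, was higher at 104 to 132 CPM against 66.4 to 87.5 CPM (0.64, adjusted p = 6.74e-07). Cat, the catalase that removes hydrogen peroxide, was at 167, 185 and 195 CPM in SHR (lowest, median, highest) and at 144, 146 and 140 CPM in WKY (0.36, adjusted p = 0.00158). Lower genes included Gstt2, at 4.75 to 7.90 CPM against 10.3 to 11.03 CPM (-0.93, adjusted p = 0.000596), and Gsta4, which conjugates lipid peroxidation products (-0.55, adjusted p = 0.00511, and 0.0706 without WKY rat 1). The lower count fell to 2 without WKY rat 1 or WKY rat 3 and to 4 without SHR rat 3 or SHR rat 6, it was 13 without SHR rat 4 and 12 without SHR rat 2, and the 3 higher genes passed with each rat left out in turn. Among the flavin-containing monooxygenases, which oxidise amines and sulfides and were looked at after their values were seen, Fmo2 was at 0.0843 to 1.31 CPM in SHR and 3.03 to 8.46 CPM in WKY (-2.91, SE 0.54, adjusted p = 0.000329). Fmo1 was at 0.640 to 1.35 CPM and 2.09 to 5.72 CPM (-1.84, adjusted p = 0.00871, and 0.115 without WKY rat 2). Both were lower in every SHR rat than in every WKY rat.

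The genes that define the inhibitory and catecholaminergic neurons of the CVLM did not differ detectably. Gad1, which makes GABA, was at 154, 163 and 181 CPM in SHR (lowest, median, highest) and at 192, 177 and 134 CPM in WKY (-0.01, adjusted p = 0.98), and Gad2 had a log2 fold change of -0.02 (adjusted p = 0.953). The vesicular transporter of GABA and glycine, Slc32a1, had a value of -0.40 (SE 0.35, adjusted p = 0.521) at a low level of 2.45 to 6.62 CPM. Th, the rate-limiting enzyme of catecholamine synthesis, was at 68.1, 94.4 and 137 CPM in SHR and at 151, 80.1 and 151 CPM in WKY (-0.39, adjusted p = 0.395), and Dbh, which makes noradrenaline, had a value of -0.11 (adjusted p = 0.845). Pnmt, the adrenaline-forming enzyme, had a value of -0.40 (adjusted p = 0.49), and Slc6a5, the glycine transporter of inhibitory terminals, of -0.07 (adjusted p = 0.888). The range of the WKY rats held the SHR median for each of Gad1, Gad2, Th, Dbh and Slc6a5. Abat, which breaks down GABA, was the member of the GABA list that passed, at 95.8 to 213 CPM in SHR and 180 to 193 CPM in WKY (-0.56, adjusted p = 0.0111). Only 1 SHR rat, at 213 CPM, overlapped the WKY rats, and without WKY rat 3 Abat did not pass (adjusted p = 0.0761).

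Excitatory and cholinergic genes gave few calls. Slc17a6, the vesicular glutamate transporter of brainstem neurons, was at 220 to 355 CPM in SHR and 232 to 266 CPM in WKY (0.13, adjusted p = 0.645). Among 11 genes of glutamate synthesis and transport the glutamine transporter gene Slc38a1 was lower, at 36.8 to 56.4 CPM against 64.0 to 90.7 CPM (-0.68, adjusted p = 0.032). Among ionotropic glutamate receptor genes the NMDA receptor subunit Grin3a was higher, at 5.84 to 16.9 CPM against 4.99 to 5.83 CPM (0.95, adjusted p = 0.0432). These calls were marginal: Slc38a1 and Grin3a each failed when any 1 of the 3 WKY rats or SHR rat 6 was left out, with adjusted p-values up to 0.214 and 0.17, and Grin3a also failed without SHR rat 1 (0.0586) or SHR rat 3 (0.0646). Chat, which makes acetylcholine, had a value of 0.74 (adjusted p = 0.195) at 11.05 to 31.2 CPM in SHR and 7.96 to 13.8 CPM in WKY. All 7 genes of acetylcholine synthesis and transport had values above zero (median 0.41), though none passed and their sums overlapped. Of 10 acetylcholine receptors 9 had values above zero and 1 below (median 0.28). The receptor sums did not overlap, at 106 to 150 CPM in SHR and 99.3 to 104 CPM in WKY. No member passed among 16 GABA receptor genes, 10 glycine genes, 7 metabotropic glutamate receptors, 10 catecholamine genes, 6 adrenergic receptors, 10 acetylcholine receptors, 10 sodium channel genes, 14 calcium channel genes or 29 genes of synaptic vesicle release. In all, 18 of 43 lists had no member that passed. Since 7.13% of all genes tested passed, a short list without a passing member is not set apart from other genes. In simulated data the test passed 77% of 2-fold changes and 23% of 1.5-fold changes. The test against the other ages passed 64% and 13%. In a simulation of 2000 genes the test against the RVLM passed 65% and 26%, and that against the NTS 61% and 27%. Changes were planted only in genes with a mean of at least 20 counts, so scarcer genes were not covered. A gene that did not pass is therefore not shown to be equal between the strains.

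Among peptides and their receptors 1 of 28 precursors and 3 of 34 receptors were lower and none passed as higher, to be set against the 4.92% of all genes that were lower. Nppc, the precursor of C-type natriuretic peptide, was at 20.4, 23.8 and 29.4 CPM in SHR (lowest, median, highest) and at 32.6, 43.4 and 47.8 CPM in WKY (-0.73, adjusted p = 0.00472). Tac1, which encodes substance P, had a value of -0.44 (adjusted p = 0.0852) and Penk, the enkephalin precursor, of -0.25 (adjusted p = 0.508). The orexin receptor gene Hcrtr1 was at 6.04 to 9.19 CPM against 11.8 to 16.4 CPM (-0.86, adjusted p = 0.00252), the vasopressin receptor gene Avpr1a at 4.64 to 5.74 CPM against 8.08 to 9.87 CPM (-0.71, adjusted p = 0.0144), and Ramp1, which turns the calcitonin receptor-like receptor into a CGRP receptor, was lower by -0.74 (adjusted p = 0.0211) with groups that overlapped. Hcrtr1 and Avpr1a were separate between the strains in all rats. None of the 3 receptors passed without WKY rat 1 (adjusted p = 0.0712, 0.145 and 0.0876), Ramp1 also failed without WKY rat 3 (0.16) and without SHR rat 3 (0.0553), and Nppc failed without WKY rat 3 (0.0789). In the renin-angiotensin system, Agt, which encodes angiotensinogen, had a value of -0.08 (adjusted p = 0.797) and the angiotensin receptor gene Agtr1a, at 2.51 to 5.67 CPM against 2.58 to 6.04 CPM, of -0.06 (adjusted p = 0.926). Among 51 potassium channel genes and partners Kcnip3, a calcium sensor that also associates with A-type channels, was lower at 12.99 to 18.8 CPM against 23.5 to 30.2 CPM (-0.72, adjusted p = 0.00133). Kcne5, an accessory subunit, was higher at 8.88 to 14.2 CPM against 3.81 to 8.70 CPM (0.87, adjusted p = 0.0385), but not without WKY rat 1 (0.128), WKY rat 2 (0.218), SHR rat 1 (0.0752) or SHR rat 3 (0.0829).

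Growth factor genes, and Fn1 among the matrix genes below, held some of the better supported differences. In the IGF system, Igfbp5, which binds insulin-like growth factors in the matrix, was at 51.6, 75.4 and 107 CPM in SHR (lowest, median, highest) and at 22.6, 24.7 and 22.4 CPM in WKY (1.75, SE 0.28, adjusted p = 3.37e-05). Igfbp5 was also called at every other age in the CVLM but at 24 weeks had values of 0.30 in the RVLM (adjusted p = 0.638) and 0.15 in the NTS (adjusted p = 0.962). It did not pass the direct tests of the CVLM against the RVLM and the NTS given below. A difference between regions was therefore not shown for Igfbp5. Igfbp6 was lower, at 28.8 to 48.5 CPM against 60.9 to 81.8 CPM (-0.88, adjusted p = 0.00133), and Insr, the insulin receptor, was lower, at 4.55 to 9.19 CPM against 18.6 to 22.7 CPM (-1.59, adjusted p = 3.35e-08). The 3 genes of the IGF list that passed, of 13 tested, did so with each rat left out in turn. Of 36 matrix genes 4 were higher and 2 lower, to be set against 2.21% and 4.92% of all genes. Fn1, fibronectin, was lower at 6.16 to 11.6 CPM against 15.2 to 20.1 CPM (-0.94, adjusted p = 0.000234), and Lama4, a laminin chain of vessel basement membranes, was higher at 6.16 to 10.97 CPM against 3.93 to 6.15 CPM (0.91, adjusted p = 0.0138). Fn1 passed with each rat left out in turn, Lama4 did not without WKY rat 2 (adjusted p = 0.0894) or WKY rat 3 (0.0841), and without WKY rat 3 no matrix gene passed as higher. The summed level of pericyte and smooth muscle markers was 149 to 192 CPM in SHR and 139 to 140 CPM in WKY, and its part in the matrix genes was not tested.

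Hemoglobin transcripts were lower in SHR. Hba-a1 was at 134, 201 and 338 CPM in SHR (lowest, median, highest) and at 436, 560 and 824 CPM in WKY (-1.44, adjusted p = 0.00206), Hba-a2 at 52.8 to 132 CPM against 161 to 306 CPM (-1.30, adjusted p = 0.00439) and Hbb at 168 to 426 CPM against 443 to 816 CPM (-1.22, adjusted p = 0.00363). The groups were separate for all 3. Hba-a3 had 1 count over the SHR rats and 130 over the WKY rats, a ratio of 332 with a 95% counting interval of 58.6 to 13226. Hemoglobin is chiefly a product of red blood cells, and how much blood each punch held is not given in the sources used here. Without WKY rat 3 Hba-a1 (adjusted p = 0.0581), Hba-a2 (0.101) and Hbb (0.0765) did not pass, whereas Hba-a3 did. The alpha globin genes are near-identical copies, so that reads may be divided among them.

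Single glial markers differed between the strains. S100b, a calcium-binding protein of astrocytes, was at 941, 1139 and 1498 CPM in SHR (lowest, median, highest) and at 2592, 2199 and 2581 CPM in WKY (-1.07, SE 0.11, adjusted p = 3.33e-09). Of the 13 astrocyte markers tested, S100b was the lower one and the growth factor receptor gene Fgfr3 (0.74, adjusted p = 0.0454) the higher one. Their median was -0.08. Their sums did not overlap, at 3645 to 4968 CPM in SHR and 5103 to 5914 CPM in WKY. The gap between the groups in S100b alone, from 1498 to 2199 CPM, was wider than that between the sums. The sum without S100b was not taken, so a lower level of the other markers is not shown. Mobp, a protein of compact myelin, was at 240 to 364 CPM against 526 to 654 CPM (-1.02, adjusted p = 7.98e-08) and was the 1 call among 19 oligodendrocyte and myelin markers, whose median was 0.03. Both S100b and Mobp passed with each rat left out in turn, while Fgfr3 failed when any of the 3 WKY rats was left out (adjusted p up to 0.225) and without SHR rat 2, 3, 5 or 6 (up to 0.134). Of 14 glucocorticoid response genes Hsd11b1, which regenerates active glucocorticoid, was lower at 40.4 to 52.7 CPM against 68.3 to 75.0 CPM (-0.55, adjusted p = 0.00623, and 0.0713 without WKY rat 1). No clock, immediate early, motile cilium, Hox or serotonin neuron gene of the lists passed.

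For 5 genes (0.0373% of those tested) the strain difference at 24 weeks differed from its mean at the other 4 ages, each at an adjusted p of 0.0323, out of 1905 at an unadjusted p under 0.05. For all 5 the WKY level at 24 weeks differed from its mean at the other ages, and none passed this test in SHR. Rbbp4, a histone-binding subunit of chromatin complexes, was at 136 to 163 CPM in SHR at 24 weeks and at 90.8 ± 3.78 CPM (SD, n = 3) in WKY, whose means at the other ages were 44.5 to 63.1 CPM. Its strain difference was 1.18, 1.71, 1.204 and 1.21 at 8, 10, 12 and 16 weeks and 0.69 at 24 weeks. Rgs17, a regulator of G protein signalling, was at 61.4 to 84.1 CPM in SHR and 99.1 to 113 CPM in WKY at 24 weeks (-0.61), with values of 0.06 to 0.16 at the other ages. Zrsr2, a factor of the minor spliceosome, was at 22.5 to 34.1 CPM against 36.1 to 39.7 CPM (-0.46), and AABR07041109.1 at 6.03 to 8.27 CPM against 12.7 to 13.9 CPM (-0.90). Sox8, a transcription factor of the oligodendrocyte lineage, moved the other way, at 77.2 to 99.1 CPM against 59.0 to 71.5 CPM (0.43), with values of -0.32 to -0.18 at the other ages. Against the mean of the other ages WKY rats at 24 weeks differed by 0.66 for Rbbp4, 0.81 for Rgs17 and 0.69 for Zrsr2. The values were 0.60 for AABR07041109.1 and -0.62 for Sox8 (adjusted p between 4.1e-05 and 0.00966 over the 5). No adjusted p in SHR was under 0.355. The SHR value furthest from zero was -0.34 (SE 0.115), for AABR07041109.1, so a change in SHR is not excluded for it. None of the 5 remained when any 1 of the WKY rats or SHR rat 1, 2 or 6 was left out.

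**Figure D5:**
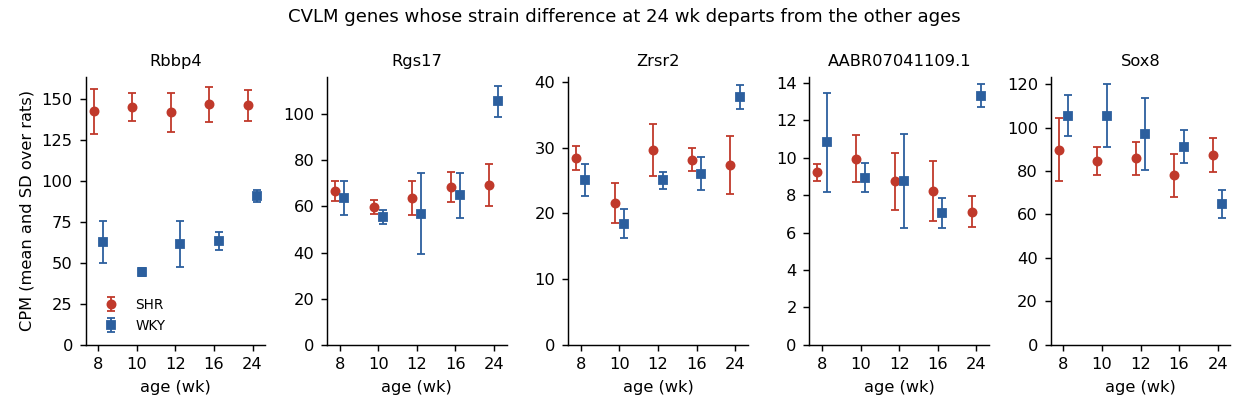
Mean levels in CPM in the CVLM, with bars of 1 SD over rats, are drawn by age in weeks and strain for the 5 genes whose strain difference at 24 weeks differed from the other ages. The WKY mean at 24 weeks lies above its other means for Rbbp4, Rgs17, Zrsr2 and AABR07041109.1 and below them for Sox8.

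A separate set of 16 genes was called in the CVLM at 24 weeks and in no other comparison of the strains. None of them was among the 5 genes above, so a difference from the other ages was not shown for them. For several the values at the other ages had the same sign: Emg1, which methylates ribosomal RNA, was at 13.4 to 23.5 CPM in SHR and 38.2 to 44.6 CPM in WKY (-1.12, adjusted p = 1.52e-07) with values of -0.36 to -0.90 at the other ages, and Rhoc, a small GTPase, at 30.1 to 49.8 CPM against 66.6 to 87.3 CPM (-1.02) with values of -0.63 to -0.92. Enpp1, which makes pyrophosphate, was higher at 11.6 to 18.4 CPM against 6.96 to 8.19 CPM (1.02) with values of 0.57 to 0.75. Others had values near zero at the other ages, as C7 did (-0.05 to 0.29) and LOC102553010 (-1.21 at 24 weeks and -0.01 to 0.07 before). Trpm2, a calcium channel opened by oxidative stress, was at 4.91 to 17.1 CPM against 3.92 to 6.38 CPM (1.34, adjusted p = 0.00595), and Mt2A, a metallothionein, at 2.86 to 5.13 CPM against 7.63 to 12.5 CPM (-1.26). The remaining 9 were Brca2, LOC690468, AABR07018078.1, Fmo1 and Hbb, all lower, and Arhgap31, Car12, Fam163a and Cd7, all higher. Trpm2 and Arhgap31 had groups that overlapped. Without WKY rat 3 the adjusted p rose to 0.0765 for Trpm2, C7 and Hbb, 0.0957 for Mt2A, 0.0702 for Car12, 0.0524 for Brca2, 0.111 for LOC690468 and 0.0873 for AABR07018078.1. Arhgap31 had 0.121 without WKY rat 1, and Fmo1 and C7 had 0.115 and 0.0508 without WKY rat 2.

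Set against the other regions of the same rats, the strain difference in the CVLM at 24 weeks differed from that in the RVLM for none of the genes tested by edgeR's quasi-likelihood test (0%), with 332 at an unadjusted p under 0.05, and from that in the NTS for 6 of 14043 (0.0427%), with 958 at an unadjusted p under 0.05. Mycbpap, a MYCBP-associated protein, was at 8.27, 11.3 and 17.9 CPM in SHR (lowest, median, highest) and at 2.90, 3.59 and 3.43 CPM in WKY in the CVLM (1.84), and had a value of 0.54 in the NTS (difference 1.32, SE 0.25, adjusted p = 0.0109). Pbx3, a homeodomain cofactor of Hox proteins, was lower in both, from 136 to 156 CPM in WKY to 32.7 to 47.1 CPM in SHR in the CVLM (-1.91) and by -1.07 in the NTS (difference -0.81, adjusted p = 0.0209). These were the 2 genes with a larger difference in the CVLM. For Tmem255b (-0.08 in the CVLM and 1.18 in the NTS, adjusted p of the difference 0.0209), Aldh1a1, which makes retinoic acid (0.25 and 1.15, adjusted p = 0.0312), and Terf2ip, a telomere protein (-0.10 and -0.64, adjusted p = 0.0312), the strains differed in the NTS and not detectably in the CVLM. AABR07001435.1 had values of opposite sign, -0.67 in the CVLM (adjusted p = 0.0726) and 0.69 in the NTS (adjusted p = 0.0873), with a difference of -1.35 (adjusted p = 0.0209). None of the 6 remained without WKY rat 2 or WKY rat 3 or in a fit of the 24-week libraries alone, Mycbpap alone remained without SHR rat 2 or SHR rat 3, and 3 remained without WKY rat 1 (AABR07001435.1, Aldh1a1 and Terf2ip) and without SHR rat 4 (AABR07001435.1, Mycbpap and Tmem255b). Against the RVLM, 1 gene passed without SHR rat 6 and none with any other rat left out, and DESeq2 passed 10.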

How the data were processed

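The authors sequenced RNA of punched CVLM, RVLM and NTS tissue and deposited, for each region, a table of RSEM expected counts (STAR alignment) per gene on the rn6 rat genome with Ensembl identifiers. The study adjusted counts for batch with ComBat_seq before its own tests, and whether the deposited expected counts hold that step is not stated, although 4.95% of the CVLM values were not whole numbers. Expected counts were rounded. As in the study, genes with a regularised log2 count of at least 3.5 in some library were kept. The quasi-likelihood test of edgeR 4.0.16 (R 4.3.3) with TMM scaling and robust dispersions was fitted to all 46 CVLM libraries with a mean per strain and age, and p-values were adjusted by Benjamini-Hochberg over all genes kept. The strain difference at 24 weeks was also tested against its mean at the other 4 ages in this fit, and against the other regions in a fit of all libraries of the 3 tables with the rat as a block. Each rat is taken as a biological replicate; that the p-values measure spread between rats rests on the labels. Intervals and limits for sums of counts cover counting error only, since reads without molecular identifiers are not independent molecules. With totals of 8587315 to 12940393 counts the median SE of a log2 fold change was 0.20. Among the 9 libraries of 24 weeks, no library repeated another of its strain. In 2 CVLM libraries of 8-week rats the title and the age label conflict; the title was followed and an alternative left them out.

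Alternatives were DESeq2 1.42.0, limma 3.58.1 with voom, median-ratio size factors, other filters, the 24-week libraries alone, each rat left out, the replicate number as a block, the number that ends a library's name as a term and, chosen after seeing the data, 2 surrogate variables (sva 3.50.0). What the number that ends a library's name stands for is not given in the sources used here. At 24 weeks only SHR rat 6 of the CVLM ended in 2. All 10-week CVLM libraries ended in 2, as did WKY rats 3, 4 and 5 at 8 weeks and SHR rat 6 at 12 weeks. Contrasts of 24 weeks with the other ages, and leaving out SHR rat 6, thus partly go with this number. The tests were tested on simulated data. The gene lists and the genes named were chosen with earlier results of these data known: the 10 highest and 10 lowest called genes with at least 20 counts and a name, the 2 highest and 2 lowest unnamed transcripts, genes that differed from the other ages or regions, genes called only here, and up to 6 passing members of each of 43 lists with 13 defining genes; 7 further lists were added after the values were seen. Some genes that these rules select are not reported here.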

Additional observations from a re-analysis of the deposited data

Results flagged for a closer look

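Among the 145 genes named or listed whose 6 SHR values were examined, 8 (5.52%) had 1 rat that stood apart by Dixon's criterion, and chance flags about 1 in 20 groups. In SHR rat 5 Abat was at 213 CPM (95.8 to 122 CPM in the other 5 SHR rats), Tap2 at 2.40 CPM (7.25 to 9.82 CPM) and Hba-a3 at 0.104 CPM, a single count, with 0 in the others. In SHR rat 2 Tac1 was at 126 CPM (68.8 to 89.8 CPM), Lama4 at 6.16 CPM (9.17 to 10.97 CPM) and Timp3 at 36.2 CPM (44.6 to 47.6 CPM). SHR rat 4 had Rpl36al at 66.1 CPM (43.1 to 50.5 CPM), and SHR rat 6 had AABR07052523.1 at 10.7 CPM (18.4 to 22.2 CPM).

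The strain difference at 24 weeks differed from its mean at the other ages by -0.64 for Rbbp4, -0.71 for Rgs17, -0.66 for Zrsr2, -0.94 for AABR07041109.1 and 0.67 for Sox8 on the log2 scale, by edgeR's quasi-likelihood test. The strain difference in the CVLM differed from that in the NTS by 1.32 for Mycbpap, -1.24 for Tmem255b, -1.35 for AABR07001435.1, -0.81 for Pbx3, -0.89 for Aldh1a1 and 0.57 for Terf2ip by the same test.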

How the results depend on the processing

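No named gene that passed changed the sign of its fold change under 19 alternatives for the 24-week comparison, whereas among those that did not pass some with values near zero did, such as Gad1 (-0.15 to 0.12) and Agtr1a (-0.28 to 0.45). Of 128 named genes that passed, 51 passed under all of them and 77 failed under at least 1, and of 17 that did not pass, 2 did under at least 1. The causes of the changes given here were not tested beyond what each setting's construction shows. In the 24-week libraries alone, 49 genes were called higher and 46 lower (92 of the 145 remained), and 145 passed as higher and 155 as lower. Without a filter 332 genes passed as lower. With a fold threshold of 4 the calls were 30 higher and 24 lower. Under DESeq2 82 genes were called higher and 80 lower (all 145 remained), 114 genes differed from the other ages (3 of the 5 remained), 10 differed from the RVLM and 14 from the NTS (6 remained). No gene differed from the other ages under 2 surrogate variables (0) or without a filter (0), and 9 did with the number that ends a library's name as a term. No gene differed from the NTS in the 24-week libraries alone (0).

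Same-numbered rats of the strains did not deviate together (r = 0.185, -0.082 and -0.239), so that they share only a number. With the replicate number as a block 56 genes were called higher and 64 lower, 387 passed as lower and 0 differed from the other ages.

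With each rat left out in turn, the genes called ranged from 53 to 71 higher and from 57 to 85 lower, those that passed from 129 to 342 higher and from 232 to 1005 lower, those that differed from the other ages from 0 to 23, from the RVLM from 0 to 1, and from the NTS from 0 to 7. With 3 WKY rats, leaving out 1 left 2, and differences under 2-fold were the least stable. In alternatives added after seeing the data, the genes that differed within WKY between 24 weeks and the other ages numbered 696 without a filter and 575 with the number that ends a name as a term, and 170 to 1511 with each rat left out, and those within SHR 24 to 48.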
